A study of Mus musculus with 6 samples.

Results

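The 10 genes described here hold and move the short-term energy reserve of muscle: the 4 creatine kinases Ckm, Ckb, Ckmt1 and Ckmt2, the 3 glycogen phosphorylases Pygm, Pygb and Pygl, the AMP deaminase Ampd1, the adenylate kinase Ak1 and the oxygen-binding protein myoglobin, Mb. They were taken by symbol from the 37991 genes counted in each library, and all 10 had an identifier in the files. A filter on low counts left 16472 genes for testing, 7 of the 10 among them. Ckmt1, Ckmt2 and Pygl did not pass it, and Ampd1 passed only through the MT control library, where it is highest.

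Cytoplasmic polyA RNA was sequenced from C2C12, a mouse myoblast line of C3H origin that fuses into myotubes when serum is lowered. Cells transduced with a lentiviral short hairpin against Kap1 (shKap1, the knockdown) were set against cells transduced with one against luciferase (shCtrl, the control), so both arms carry a lentivirus. KAP1, the product of Trim28, is a transcriptional corepressor, and the series asks how it bears on the work of MyoD in muscle differentiation. MT cells had been differentiating for 48 hours, in horse serum supplemented with insulin-transferrin-selenium, and MB cells were proliferating myoblasts in fetal calf serum. There is 1 MT knockdown library, 1 MT control library, 2 MB knockdown libraries and 2 MB control libraries. The labels do not say whether MB replicates are independent cultures. The p-values therefore reflect the scatter of these libraries alone, possibly technical, and every library comes from 1 cell line.

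A contracting fibre spends ATP faster than metabolism replaces it, and creatine kinase bridges the gap by moving phosphate from phosphocreatine onto ADP. Glycogen phosphorylase releases glucose 1-phosphate from stored glycogen, adenylate kinase makes ATP and AMP from ADP, and AMP deaminase removes that AMP. Muscle has its own isoforms of several of these enzymes: Ckm is the muscle cytosolic creatine kinase and Ckb the brain one, Ckmt2 is the sarcomeric and Ckmt1 the ubiquitous mitochondrial form, and Pygm, Pygb and Pygl are the muscle, brain and liver phosphorylases. During muscle development the brain isoforms are known to give way to the muscle ones.

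The promoters of the muscle and brain isoforms of both enzymes are shown because the results that follow compare these isoforms. RefSeq promoter windows (GRCm38.p6, 250 bases before to 50 bases after a gene's start) were found for 9 of the 10 genes, and the 4 below belong to genes with 1 listed start. They are written 5′ to 3′ on the gene's strand. Capitals mark CANNTG, the E-box that myogenic helix-loop-helix factors such as MyoD bind, and any match to the MEF2 consensus, both searched on both strands.
Ckm (chr7:19410844-19411143, + strand): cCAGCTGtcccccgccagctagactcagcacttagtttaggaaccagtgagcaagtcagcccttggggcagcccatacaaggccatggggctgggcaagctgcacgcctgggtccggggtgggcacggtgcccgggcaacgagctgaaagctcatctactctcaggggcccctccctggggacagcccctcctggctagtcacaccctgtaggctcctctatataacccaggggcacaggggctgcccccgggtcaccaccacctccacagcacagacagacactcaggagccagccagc
Ckb (chr12:111672289-111672588, - strand): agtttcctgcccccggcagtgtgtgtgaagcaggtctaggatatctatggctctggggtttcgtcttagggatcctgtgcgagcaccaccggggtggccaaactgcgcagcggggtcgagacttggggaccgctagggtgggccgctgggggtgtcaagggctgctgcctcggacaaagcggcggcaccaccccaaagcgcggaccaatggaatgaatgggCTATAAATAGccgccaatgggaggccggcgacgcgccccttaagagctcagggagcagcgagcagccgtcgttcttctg
Pygm (chr19:6384158-6384457, + strand): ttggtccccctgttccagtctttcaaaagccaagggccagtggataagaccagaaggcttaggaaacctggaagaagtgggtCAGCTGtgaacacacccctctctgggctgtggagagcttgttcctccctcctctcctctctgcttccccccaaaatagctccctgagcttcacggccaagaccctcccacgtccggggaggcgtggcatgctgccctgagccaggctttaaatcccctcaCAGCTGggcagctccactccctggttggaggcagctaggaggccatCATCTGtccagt
Pygb (chr2:150786546-150786845, + strand): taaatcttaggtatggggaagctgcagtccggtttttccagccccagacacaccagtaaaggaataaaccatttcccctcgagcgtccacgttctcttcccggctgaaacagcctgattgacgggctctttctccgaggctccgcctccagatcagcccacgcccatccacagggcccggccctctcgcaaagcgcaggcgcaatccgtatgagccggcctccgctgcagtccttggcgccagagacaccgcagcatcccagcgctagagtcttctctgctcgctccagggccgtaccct
The Ckm window held 1 CANNTG and the Pygm window 3, of which 1 and 2 read CAGCTG, a form that MyoD favours. The Ckb and Pygb windows held no CANNTG, and the Ckb window held 1 MEF2 match. Among the other members with windows, at least 1 window of Ckmt1, Ckmt2, Ak1 and Mb held a CAGCTG, and that of Pygl did not. A MEF2 match also lay in 1 window of Ak1. Of all 32851 such windows, 72.3% held a CANNTG, 16.3% a CAGCTG and 3.19% a MEF2 match, so a CANNTG by itself sets no gene apart. These are matches of letters, and binding was not measured here.

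Library depth ranged from 36247530 to 49839994 counts on genes. Levels are given as CPM, counts scaled to each library's total on genes. Trim28, which encodes KAP1, stood at 122 CPM in MT knockdown and 382 CPM in MT control, and at 152 and 101 CPM in MB knockdown against 587 and 417 CPM in MB control. Skeletal muscle markers summed to 793 CPM in MT knockdown and 9153 CPM in MT control. In myoblasts the sums were 376 and 931 CPM in knockdown against 460.4 and 877 CPM in control. All 10 were counted in every library, and of these only Myf5 was higher in MT knockdown (82.4 CPM) than in MT control (34.8 CPM). Of tissues that also use these isoforms, the 4 liver markers summed to 0.193 to 1.81 CPM per library and the 4 brain markers to 0.221 to 0.69 CPM, with Alb, Ttr, Rbfox3 and Snap25 at 0 counts throughout. The 6 heart markers summed to 6.01 CPM in MT knockdown and 44.1 CPM in MT control, of which the myosin Myh6 made up 0.579 and 41.4 CPM. Tnni3 (3.45 and 1.89 CPM) and Nkx2-5 (1.82 and 0.863 CPM) went the other way, higher in MT knockdown. Nppa and Nppb stayed at or under 0.0984 CPM, and Myl7 was at 0 CPM in both MT libraries. Smooth muscle markers summed to 6001 CPM in MT knockdown and 5717 CPM in MT control. In myoblasts the sums were 6408 and 2150 CPM in knockdown against 3364 and 1447 CPM in control. They differed between replicates and were higher in knockdown within both MB pairs. The MT sums were mostly Acta2 (4685 CPM in knockdown and 5116 CPM in control). Smtn was also lower in MT knockdown (87.3 and 130.1 CPM). Tagln (765 and 280.3 CPM), Actg2 (359.6 and 166 CPM), Cnn1, Lmod1 and Myh11 were higher in MT knockdown. The part of these markers in the results was not tested.

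Replicate 1 of both MB groups and both MT libraries carry a mark in the names of their deposited files that replicate 2 of both MB groups lacks. Its meaning is not stated. It is treated below as a batch, and tests come from an edgeR quasi-likelihood fit over all 6 libraries with a term for it. Genes said to have risen or fallen passed a Benjamini-Hochberg adjusted p of 0.05 over the 16472 genes in that fit, and none of the 7 members passed in the fit without the term, which called 0 genes in every comparison. Without the term the smallest adjusted p of any gene was 1 in MB knockdown, 0.457 in MT knockdown and 0.0522 in control differentiation (edgeR), while 454, 1383 and 4174 genes had unadjusted p under 0.05 and DESeq2 called 53, 361 and 2363. Each MT group is 1 library, so comparisons with MT have no replicate check and assume that these libraries vary as the MB ones do. SE is worked back from the edgeR test, as the absolute log2 change over the square root of its F statistic. Where counts are few it can be smaller than counting error alone.

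After 48 hours of differentiation, Ckm, Pygm, Mb and also the brain form Ckb were lower in the knockdown library than in the control library. Ckm, Pygm and Mb stood at 1.81% to 2.44% of the control level and Ckb at 17.4%, while Pygb was higher and Ak1 did not pass. Leaving out Ampd1, which entered the tested genes only through the MT control library, 4 of the other 6 members fell and 1 rose, where 20.3% of all tested genes were called, 11.2% lower and 9.09% higher (edgeR with batch term). Whether a culture held fewer myotubes or each cell less of these RNAs cannot be told apart in bulk RNA.

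Ckm (ENSMUSG00000030399) was at 4.75 CPM in MT knockdown and 195 CPM in MT control. In myoblasts it was at 0.214 and 2.79 CPM in MB knockdown and at 0.191 and 2.46 CPM in MB control. The MT control library stood above every other library, the MT knockdown library came next, and replicate 2 of each MB group lay well above replicate 1. MB levels averaged 1.5 ± 1.82 CPM in knockdown and 1.33 ± 1.6 CPM in control (SD, n = 2 each). In MT knockdown Ckm fell by 5.49 on the log2 scale (SE 0.165, adjusted p = 3.56e-08 by edgeR with the batch term), and the knockdown library held 2.44% of the control level, with a 95% interval for counting error of the ratio from 0.0209 to 0.0284.

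Ckb (ENSMUSG00000001270) was at 32.1 CPM in MT knockdown and 185 CPM in MT control, against 10.5 and 21.1 CPM in MB knockdown and 7.29 and 25.1 CPM in MB control. As for Ckm, MT control was highest, MT knockdown next and replicate 1 of each MB group lowest, over a narrower range. Ckb fell by 2.66 on the log2 scale in MT knockdown (SE 0.262, adjusted p = 0.00261, edgeR with batch term). The knockdown library held 17.4% of the control level (ratio interval 0.163 to 0.184), an interval that does not meet the one of Ckm.

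The mitochondrial creatine kinases were nearly uncounted. Ckmt2 (ENSMUSG00000021622) had 1 count in MT knockdown and 5 counts in MT control, a ratio of 0.275 with an interval from 0.00581 to 2.46, and 0 counts in all 4 MB libraries. Ckmt1 (ENSMUSG00000000308) had 2 counts in MT knockdown and 0 counts in the other libraries. The limit that a count of 0 allows, 3 counts, corresponds to between 0.0602 and 0.0828 CPM per library, so differences in either gene were not detectable at this depth. Intervals and limits cover counting error only.

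Pygm (ENSMUSG00000032648), whose loss causes McArdle disease in humans, was at 2.37 CPM in MT knockdown and 106 CPM in MT control. Its MB levels were 1.89 and 2.31 CPM in knockdown and 2.29 and 1.97 CPM in control. One library, MT control, stood alone, and the other 5 lay between 1.89 and 2.37 CPM. In MT knockdown Pygm fell by 5.61 on the log2 scale (SE 0.226, adjusted p = 1.86e-07 by edgeR with the batch term), and the library held 2.24% of the control level. Pygm also had the smallest unadjusted p of the members without the batch term (4.44e-05, adjusted p = 0.457, edgeR), and DESeq2 called it without that term.

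Pygb went the other way. This gene (ENSMUSG00000033059) was at 90.5 CPM in MT knockdown and 57.7 CPM in MT control, and at 100.3 and 96 CPM in MB knockdown against 91.2 and 87.3 CPM in MB control. MT control was again the library that differed, this time as the lowest. Pygb rose by 0.51 in MT knockdown (SE 0.13, adjusted p = 0.0206, edgeR with batch term), between 0.47 and 0.65 under the other scalings and DESeq2. DESeq2 with the batch term did not call it. Pygl (ENSMUSG00000021069), the liver form, had 1 count in all, in MB knockdown replicate 1.

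Mb (ENSMUSG00000018893) was at 3.72 CPM in MT knockdown and 206 CPM in MT control, against 0.429 and 1.6 CPM in MB knockdown and 0.31 and 2.66 CPM in MB control. The MT control library was the highest and the MT knockdown library the second. Mb fell by 5.92 on the log2 scale (SE 0.228, adjusted p = 1.11e-06, edgeR with batch term). By the plain ratio of CPM, the knockdown library held 1.81% of the control level. Apol6 overlaps Mb on the opposite strand and the strand setting of the counting is not known, so some reads could be assigned to either gene. Apol6 had 250 counts in MT knockdown and 562 in MT control, beside 135 and 10264 for Mb.

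Ampd1 (ENSMUSG00000070385), which turns AMP into IMP in skeletal muscle, had 3 counts in MT knockdown and 52 in MT control, a ratio of 0.0793 with an interval from 0.0158 to 0.245. It had 1 and 1 counts in MB knockdown and 2 and 3 counts in MB control. Only the MT control library rose clearly above the limit of 3 counts. It passed the low-count filter through that library alone, so a test between the MT groups is not independent of the filter, and its fitted change is not read as a result.

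Ak1 (ENSMUSG00000026817), the cytosolic adenylate kinase abundant in muscle, showed no such pattern. It was at 144 CPM in MT knockdown and 167 CPM in MT control, and at 191 and 104 CPM in MB knockdown against 141 and 97.7 CPM in MB control. Replicate 1 was higher than replicate 2 in both MB groups, and both MT values lay inside the range of the MB libraries. In MT knockdown the log2 change of Ak1 was -0.36 (SE 0.15, adjusted p = 0.125 by edgeR with the batch term).

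**Figure D1:**
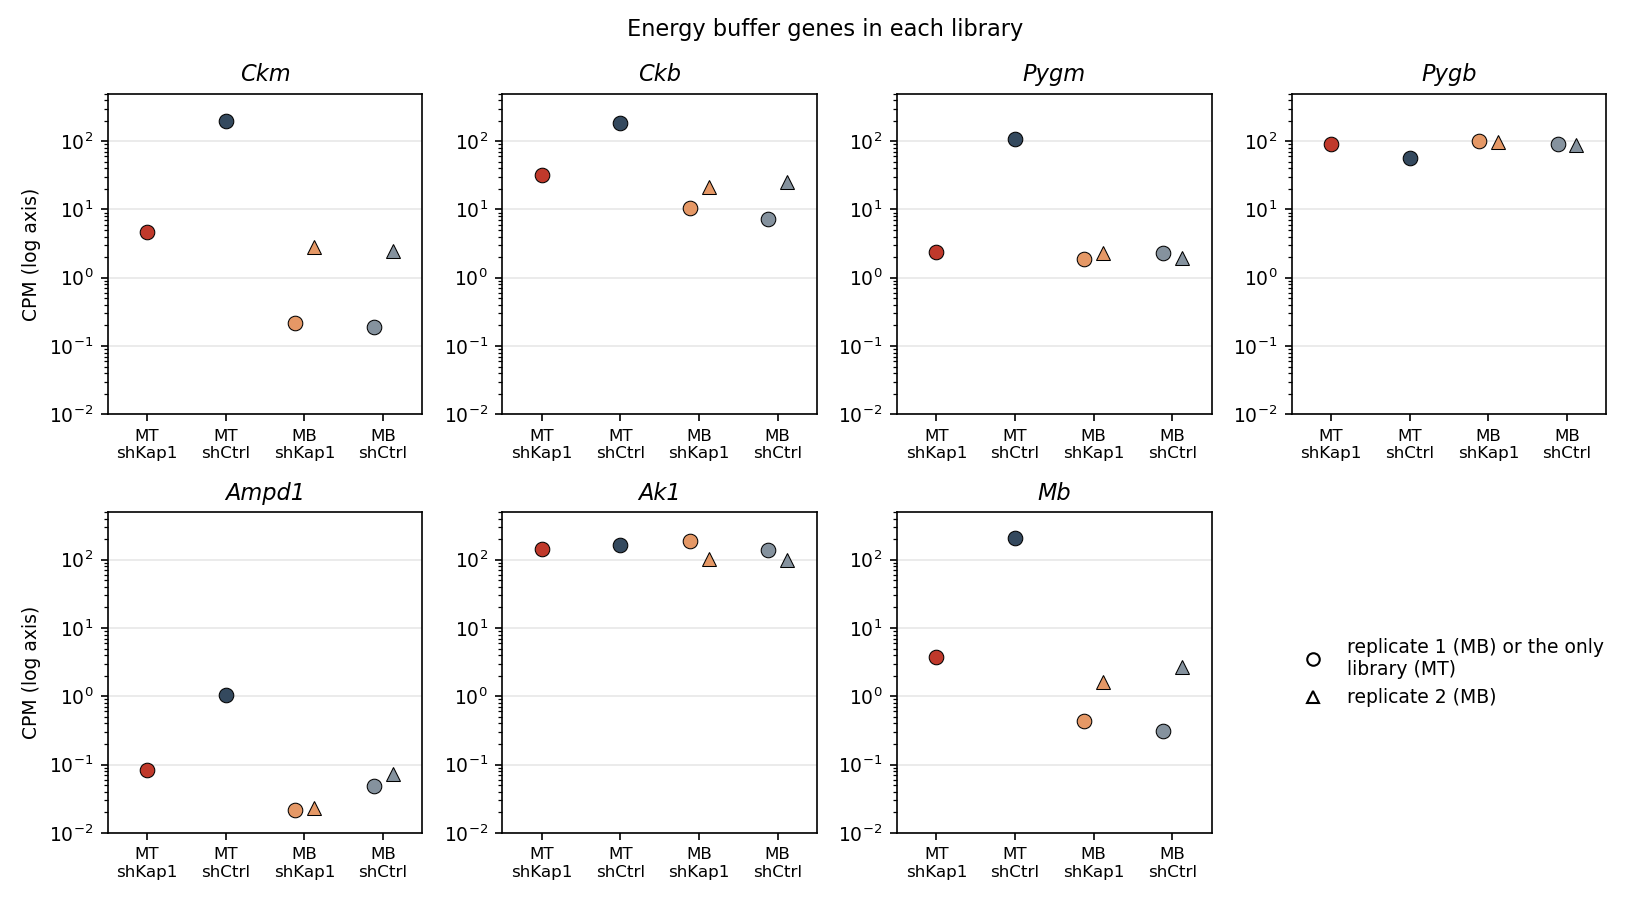
CPM on a log axis of the 7 tested members in each library, with 1 point per library, circles for MB replicate 1 and the MT libraries and triangles for MB replicate 2. MT control (106 CPM for Pygm) stands alone at the top for Ckm, Ckb, Pygm, Ampd1 and Mb and at the bottom for Pygb (57.7 CPM), and the MB replicates part for Ckm, Ckb and Mb.

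In proliferating myoblasts, none of the 7 members passed in knockdown against control, where 3.84% of all tested genes were called (edgeR with batch term). The log2 changes were 0.16 for Ckm (SE 0.18), 0.07 for Ckb (SE 0.191), -0.05 for Pygm (SE 0.175), 0.11 for Pygb (SE 0.0913), -1.36 for Ampd1 (SE 1.08, on 1 to 3 counts per library), 0.23 for Ak1 (SE 0.106) and -0.49 for Mb (SE 0.245), and the smallest adjusted p was 0.304, for Ak1. Within both pairs of replicates Ckm, Pygb and Ak1 were higher in knockdown than in control, and Ampd1 was lower. The log2 differences were 0.12 and 0.17 for Ckm, 0.09 and 0.12 for Pygb, 0.40 and 0.07 for Ak1 and -1.09 and -1.59 for Ampd1. For Ckm both ratio intervals for counting error include 1 (0.399 to 3.28 and 0.865 to 1.49). Ampd1 rests on 1 to 3 counts per library, so no direction is read for Ckm or Ampd1. Ckb differed by 0.48 between the replicate 1 libraries and by -0.27 between the replicate 2 libraries, Mb by 0.42 and -0.75, and Pygm by -0.32 and 0.22. These pairs had opposite signs, so no direction is given for these genes in myoblasts.

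The MB replicates themselves differed in a way that the members did not share. Replicate 2 exceeded replicate 1 in Ckm by 3.73 on the log2 scale in knockdown and 3.69 in control, in Mb by 1.94 and 3.10, and in Ckb by 1.05 and 1.80. For Pygm the difference was 0.33 in knockdown and -0.20 in control, and for Pygb it was -0.02 and -0.05. Ak1 was lower in replicate 2, by -0.84 and -0.51. Myog, the factor that starts terminal differentiation, was at 0.686 and 14.1 CPM in MB knockdown and 1.26 and 32.9 CPM in MB control. Myod1 was at 3.49 and 20.4 CPM in MB knockdown and 11.8 and 31 CPM in MB control. The part of either in these differences was not tested.

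The 2 stages were then compared within each arm. In control cells, again leaving out Ampd1, 4 of the other 6 members rose with differentiation and 1 fell, where 44.9% of tested genes were called, 22.3% higher and 22.6% lower (edgeR with batch term). Ckm rose by 10.01 on the log2 scale (SE 0.195, adjusted p = 3.78e-10, edgeR with batch term), Mb by 8.90 (SE 0.249) and Pygm by 5.68 (SE 0.193). The brain form Ckb rose as well, by 4.46 (SE 0.249). Pygb fell by 0.63 (SE 0.123, adjusted p = 0.00208, edgeR with batch term), and Ak1 changed by 0.19 (SE 0.141, adjusted p = 0.311).

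The size of the Ckm, Mb and Ckb changes depended on which MB library served as the base. Ckm in the MT control library was 1020-fold above MB control replicate 1 (interval 517 to 2363) and 79.1-fold above replicate 2 (64.9 to 97.3). For Mb these ratios were 665 and 77.5, and for Ckb 25.3 and 7.36. Pygm gave 46.2 and 53.7, with intervals that overlap (37.8 to 57.1 and 43.1 to 67.9). Without the batch term, Ckm stood at 7.21, or 6.31 without MB_shCtrl replicate 1 and 10.01 without MB_shCtrl replicate 2. Mb stood at 7.13, 6.28 and 9.40 and Ckb at 3.52, 2.88 and 4.70 in the same fits. The Ckm level of MB control replicate 1 rests on 8 counts, so the SE of 0.195 with the batch term is likely too small.

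In knockdown cells, 3 of the 7 members rose and 0 fell, where 33.1% of tested genes were called, 16.6% higher and 16.5% lower (edgeR with batch term). Ckm rose by 4.36 (SE 0.24), Mb by 3.46 (SE 0.307) and Ckb by 1.73 (SE 0.239, adjusted p = 0.00519, edgeR with batch term). Pygm, at 0.12 (SE 0.235, adjusted p = 0.725), and Pygb, at -0.23 (SE 0.122, adjusted p = 0.178), did not pass. Against MB knockdown replicate 1 the MT knockdown library held 22.1 times the Ckm level (11.8 to 47), and against replicate 2 only 1.7 times (1.34 to 2.16). For Mb the ratios were 8.69 and 2.32 and for Ckb 3.06 and 1.52, while for Pygm they were 1.26 and 1.03, with intervals that include 1 (0.924 to 1.71 and 0.76 to 1.38). Without MB_shKap1 replicate 1 and without the batch term, the Ckm change was 0.65, the Mb change 1.10 and the Ckb change 0.49. MB knockdown replicate 1 held 10 Ckm counts, so the SE of 0.24 for Ckm with the batch term is likely too small as well. Control differentiation and MT knockdown share the MT control library, and knockdown differentiation shares the MT knockdown library with MT knockdown against control.

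The knockdown effect was then set between stages, as the change in MT minus the change in MB. Of the 7 members, 4 were lower and 0 higher, where 10.5% of tested genes were called, 6.63% lower and 3.82% higher (edgeR with batch term). Pygm differed by -5.56 (SE 0.278), and Ckb by -2.74 (SE 0.318). Pygb (0.41) and Ak1 (-0.59) did not pass, although Ak1 did without the low-count filter (-0.63, adjusted p = 0.0209 by edgeR with the batch term). Ampd1 (-2.38) did not pass either. It entered the tested genes only through MT control, so it is not read as a result.

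**Figure D2:**
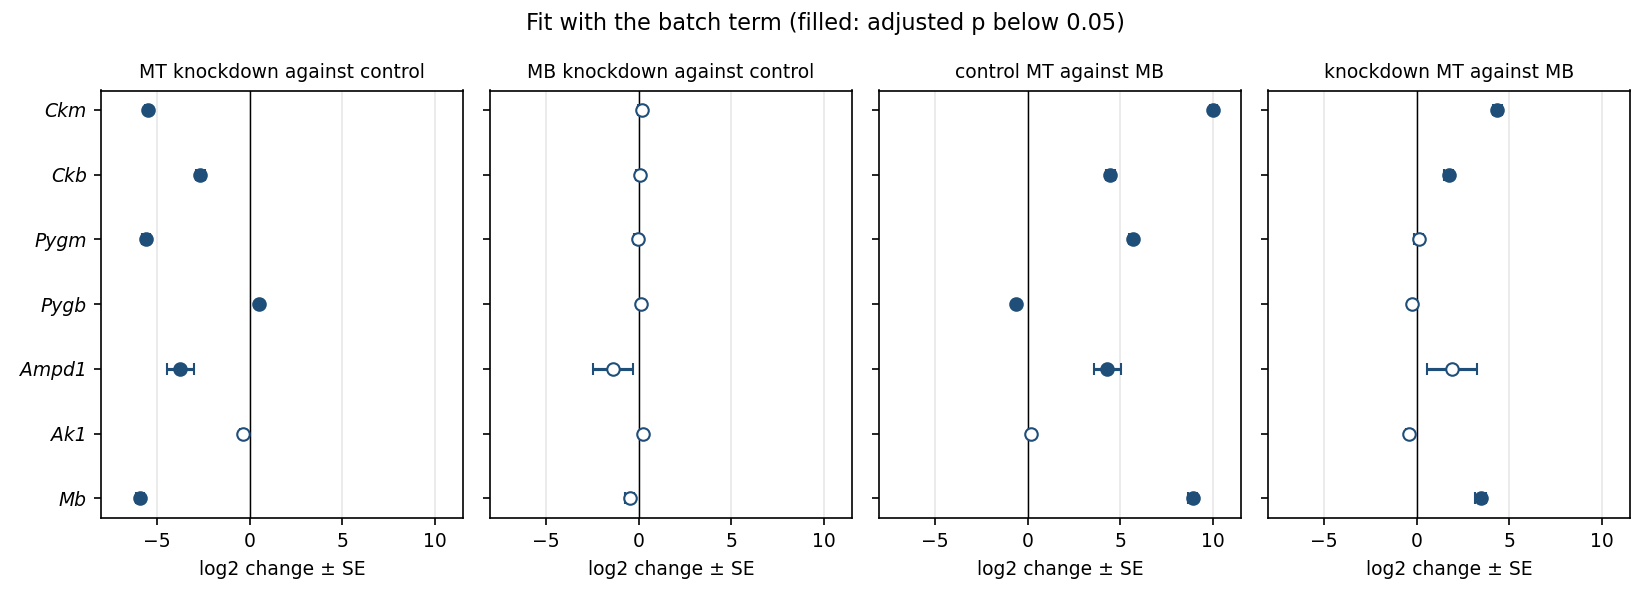
Log2 change with its SE, worked back from the F statistic, for the 7 tested members in 4 comparisons. Values come from the edgeR fit with the batch term, with filled points past an adjusted p of 0.05. In MT knockdown Ckm, Ckb, Pygm and Mb have filled points below 0. Ak1 has an open one there (-0.36) and Pygb a filled point above 0 (0.51). Ampd1 is also filled in MT knockdown and in control differentiation. It passed the low-count filter only through MT control, so these 2 points are not read as results. MB knockdown shows no filled point. Pygm has a filled point in control (5.68) and an open one in knockdown differentiation (0.12).

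Levels of different genes were compared per kilobase of exon, with lengths from GENCODE M21, a later annotation than the one counted, so these ratios are approximate. In MT control, Mb was highest at 138 CPM per kb, followed by Ckm (66.8), Ak1 (64.6), Ckb (63.8), Pygm (32.9) and Pygb (12). Ckm, Ak1 and Ckb lay close together, and with 1 library their order has no replicate check. In MT knockdown the order was Ak1 (55.4), Pygb (18.8), Ckb (11.1), Mb (2.5), Ckm (1.63) and Pygm (0.737). In MB control replicate 1 and replicate 2, Ak1 (54.3 and 37.7) and Pygb (19 and 18.2) led as well, followed by Ckb (2.52 and 8.67).

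The summed creatine kinase level per kb was 12.7 in MT knockdown and 131 in MT control, against 3.69 and 8.25 in MB knockdown and 2.59 and 9.51 in MB control. Ckm made up 12.8% of Ckm and Ckb together in MT knockdown (95% Wilson interval 11.1% to 14.7%) and 51.1% in MT control (50.4% to 51.8%). In myoblasts the share was 2% and 11.6% in knockdown and 2.53% and 8.88% in control, lower in replicate 1 of each. The interval of MT knockdown overlapped that of MB knockdown replicate 2 (9.82% to 13.7%) and lay above those of the other 3 MB libraries.

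Among the phosphorylases, Pygm made up 3.77% of Pygm and Pygb together in MT knockdown (3.07% to 4.62%) and 73.2% in MT control (72.3% to 74.1%). In myoblasts the share was 2.73% and 3.47% in knockdown and 3.61% and 3.26% in control. The summed phosphorylase level per kb was 19.6 in MT knockdown and 44.9 in MT control, and 18.8 to 21.4 in the 4 MB libraries. The MT knockdown library was inside the MB range on this measure, and MT control was outside it.

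**Figure D3:**
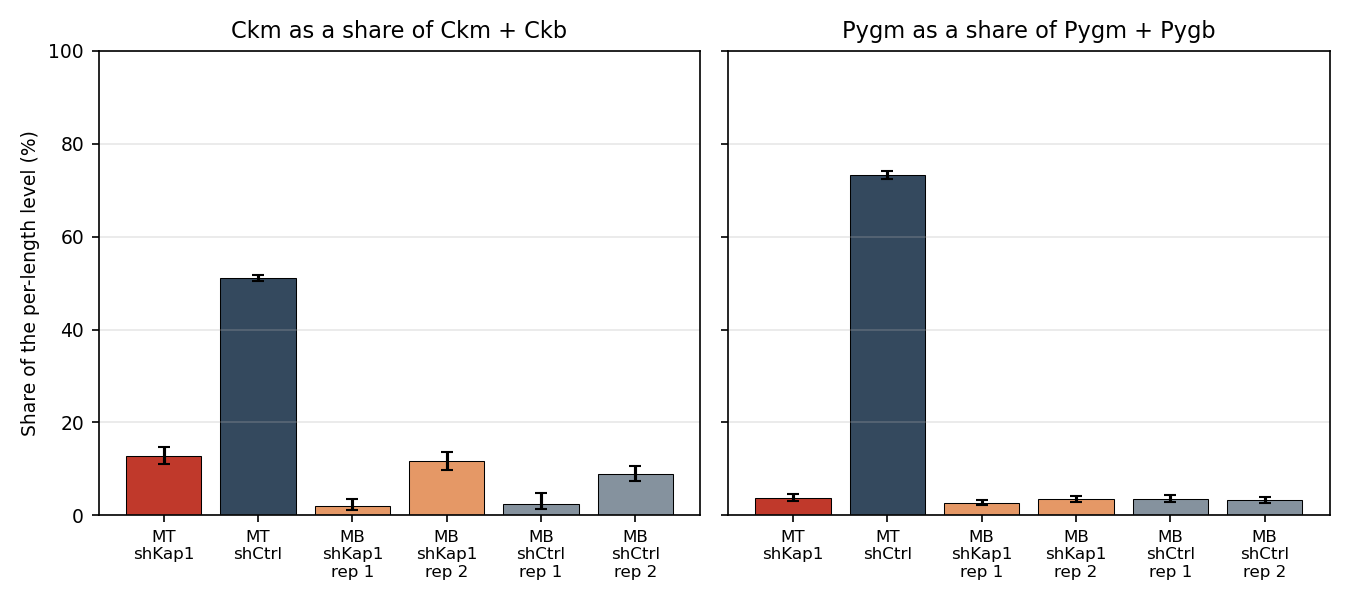
Share of the muscle isoform in the per-length level of each pair, Ckm with Ckb and Pygm with Pygb, in each library, with 95% Wilson intervals for counting error. MT control reaches 51.1% and 73.2%, MT knockdown 12.8% and 3.77%, and the Ckm share differs between MB replicates where the Pygm share does not separate them.

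The genes most like Ckm over the 6 libraries, by Pearson correlation of log2 CPM among 12535 other genes with a mean of at least 1 CPM, were Ryr1, the calcium release channel of the sarcoplasmic reticulum (0.9991), the fast troponin Tnnt3 (0.9982), Ppfia4 (0.9973), the fast myosin light chain Mylpf (0.9969) and the fusion protein Mymk (0.9958). Ckb itself ranked 14 (0.9930), Mb 53 (0.9869), Pygm 859 (0.8638) and Pygb 12032 (-0.9036). Most like Ckb were Syt8 (0.9978), Gm12892 (0.9977), the noncoding RNA Airn (0.9975), Olfml2b (0.9972) and Klhl41 (0.9970), with Mb at rank 13 (0.9949). These are descriptions over 6 points that share 4 groups and 1 far library, MT control. In CPM, Ryr1 was at 10.8 in MT knockdown and 308 in MT control, and Olfml2b at 125 and 348.

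The neighbouring genes of these pathways were listed by function, and 48 of the 55 found in the files passed the filter. In MT knockdown 12 of the 48 fell and 3 rose, where 11.2% of all tested genes fell and 9.09% rose (edgeR with batch term). None passed without the batch term. In control differentiation 24 of the 48 rose and 11 fell, where 22.3% of all tested genes rose and 22.6% fell, so the share that fell was near that of all genes. In MB knockdown 1 of the 48 rose and 2 fell, where 2.50% of all tested genes rose and 1.34% fell (edgeR with batch term).

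Of the 3 genes listed for creatine supply, 2 had lower RNA in MT knockdown, where 11.2% of all tested genes fell (edgeR with batch term). Creatine itself was not measured. Gatm, which makes guanidinoacetate as the first step of creatine synthesis, was at 15.7 CPM in MT knockdown and 108 CPM in MT control and fell by 2.92 (SE 0.143, adjusted p = 6.35e-07, edgeR with batch term). It was also lower in MT knockdown than in MB knockdown, where it was at 24.1 and 31.6 CPM, a difference of -0.71 on the log2 scale (adjusted p = 0.00283 by edgeR with the batch term). Gamt, the enzyme of the second step, fell by 1.33 (18.9 CPM in MT knockdown and 43.3 CPM in MT control). The creatine transporter Slc6a8, at 107 CPM in MT knockdown and 119 CPM in MT control, did not pass (adjusted p = 0.138).

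Of 7 tested genes of glycogen synthesis 2 fell and 0 rose in MT knockdown (edgeR with batch term). Of all tested genes 11.2% fell and 9.09% rose. Of 14 tested genes of glycogen breakdown and control 1 fell and 0 rose, near the share of all genes. Glycogen synthase Gys1 was at 57.2 CPM in MT knockdown and 134 CPM in MT control (-1.37, adjusted p = 1.18e-04 by edgeR with the batch term), and the phosphoglucomutase Pgm1 was at 77.1 CPM in MT knockdown and 164 CPM in MT control (-1.22). Subunits of phosphorylase kinase, which switches phosphorylase on, did not pass: Phkb was at -0.41, Phka2 at -0.41 and Phkg2 at 0.50. Neither did Ugp2, which makes UDP-glucose (0.80, adjusted p = 0.0594, edgeR with batch term), nor Pgm2l1 (0.73, adjusted p = 0.106).

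In adenine nucleotide exchange, 4 of 16 tested genes fell and 3 rose in MT knockdown, beside 11.2% and 9.09% of all tested genes. Adssl1, the muscle adenylosuccinate synthase that works in the same cycle as Ampd1, was at 8.19 CPM in MT knockdown and 60.8 CPM in MT control (-3.03, SE 0.232, adjusted p = 5.96e-05, edgeR with batch term), while its ubiquitous relative Adss rose by 0.47 (96.1 and 63 CPM). The mitochondrial adenylate kinase Ak4 fell by 1.64, with 12.2 CPM in MT knockdown and 34.7 CPM in MT control, and Adsl, the lyase of that cycle, by 0.51. The adenosine deaminase Ada rose by 2.09, at 6.57 CPM in MT knockdown and 1.4 CPM in MT control. In MB knockdown Ada rose by 0.80 (adjusted p = 0.0408, edgeR with batch term) and Ak4 fell by 0.58 (adjusted p = 0.0277). Of all tested genes 2.50% rose and 1.34% fell there.

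AMP-activated kinase senses the AMP that adenylate kinase makes. Of its 7 subunits 3 fell in MT knockdown and 0 rose, beside 11.2% and 9.09% of all tested genes. Prkag3, the gamma subunit of glycolytic skeletal muscle, was at 1.16 CPM in MT knockdown and 56.6 CPM in MT control (-5.74, SE 0.256, adjusted p = 2.89e-07, edgeR with batch term), at 0.279 and 0.664 CPM in MB knockdown and at 0.501 and 1.48 CPM in MB control. It was also the 1 subunit that fell in MB knockdown (-1.07, adjusted p = 0.0465, edgeR with batch term), where 1.34% of all tested genes fell. The catalytic subunit Prkaa2 was at 4.47 CPM in MT knockdown and 20.7 CPM in MT control (-2.35), and the 4 MB libraries held 4.19 to 4.36 CPM. Prkab2 fell by 0.89, and Prkab1, at -0.43, did not pass (adjusted p = 0.056). Of the other globins, Cygb, cytoglobin, was at 1.99 CPM in MT knockdown and 2.79 CPM in MT control (-0.63, adjusted p = 0.283, edgeR with batch term), and Ngb was under the filter.

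**Figure D4:**
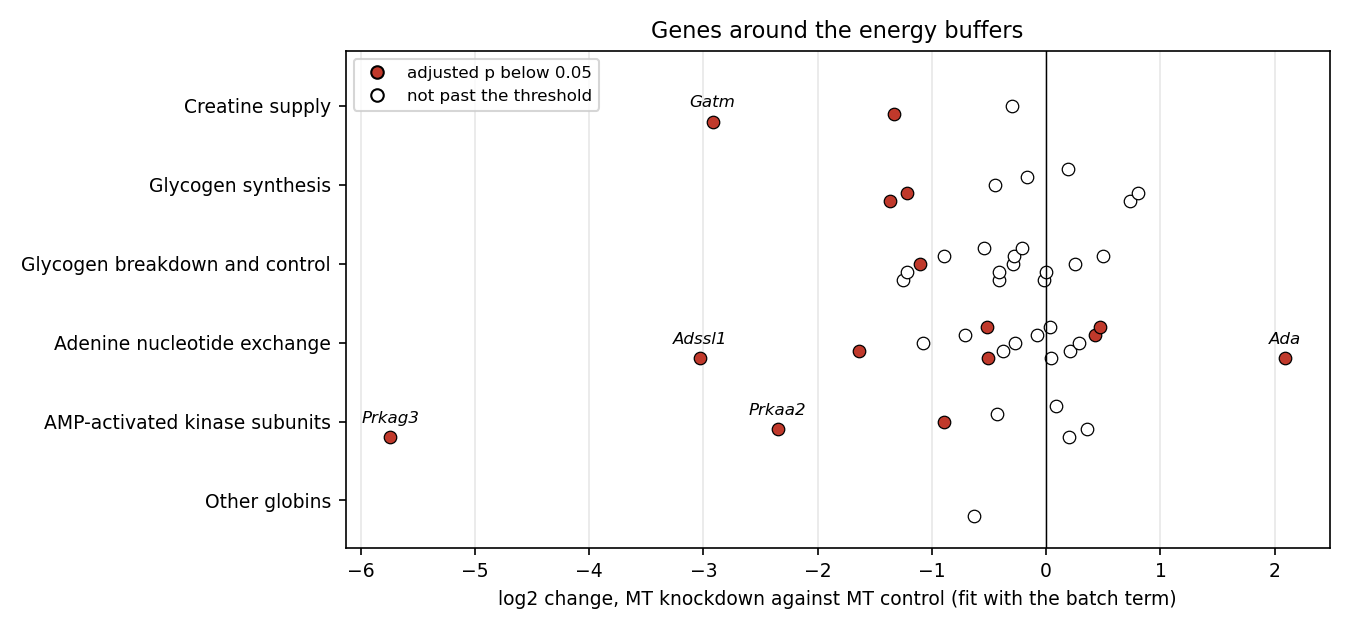
Log2 change in MT knockdown against MT control for the 48 tested genes of the 6 lists, 1 point per gene in the edgeR fit with the batch term, filled where adjusted p was under 0.05. Prkag3 (-5.74), Adssl1 (-3.03), Gatm (-2.92) and Prkaa2 (-2.35) lie farthest to the left, and Ada (2.09) farthest to the right.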

How the data were processed

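The deposited values are raw read counts per Ensembl gene from 6 libraries of C2C12 cells. Per the submitters' processing notes, TopHat2 2.0.11, HTSeq and the mm9 mouse build were used. Annotation release, counting mode and strand setting are not stated there. Lines naming no gene were left out: reads in no gene were 5.18% to 8.07% and ambiguous reads 2.81% to 2.93%. Symbols for 32919 identifiers (99.04% of counts) came from GENCODE M21.

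The deposited counts went into edgeR 4.0.16 under R 4.3.3 (quasi-likelihood test, robust, TMM, filterByExpr, Benjamini-Hochberg over 16472 genes), with 1 mean per group. Biological variation was estimated at 32.9% on 2 residual degrees of freedom with no batch term, and at 9.74% on 1 with it. The first was written as primary and called no gene, so members are described from the second. DESeq2 1.42.0, other scalings, no filter and leaving out MB libraries were alternatives. The fits were tested on simulated data. Within-pair log2 differences use TMM-scaled CPM with a small prior count, and correlations a prior count of 2. Adjusted p-values that DESeq2 gives as missing stay missing. Ratio intervals are exact conditional binomial ones at 95%.

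Named genes were the 10 members, Trim28, Myod1 and Myog, up to 4 genes of each pathway list with the smallest p in MT knockdown, and the 5 genes most like Ckm and Ckb. One gene of the pathway lists is not reported here by name. Adss, the marker genes and Apol6 were named after their values were seen. Members and lists were chosen with earlier results of these data known.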

Additional observations from a re-analysis of the deposited data

Results flagged for a closer look

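For 4 members the knockdown effect differed between stages by the interaction term of the edgeR fit with the batch term, taken as the change in MT less the change in MB. The background is 10.5% of tested genes called, with 6.63% of tested genes lower. Ckm differed by -5.65 (SE 0.239, adjusted p = 7.04e-07), Pygm by -5.56 (SE 0.278, adjusted p = 2.54e-06), Mb by -5.43 (SE 0.335, adjusted p = 3.79e-05) and Ckb by -2.74 (SE 0.318, adjusted p = 0.00795). Within the replicate 1 libraries alone, with no test, the values were -5.62, -5.29, -6.35 and -3.14. Ak1 (-0.59, adjusted p = 0.0721), Pygb (0.41, adjusted p = 0.144) and Ampd1 (-2.38, adjusted p = 0.419) did not pass (edgeR with batch term). Without the batch term, edgeR passed none of the 7, and DESeq2 called Pygm. In that edgeR fit, leaving out single MB libraries moved Ckm between -8.45 (without MB_shCtrl replicate 2) and -2.83 (without MB_shKap1 replicate 2), Mb between -7.62 and -4.09 without the same libraries, and Ckb between -3.77 (without MB_shCtrl replicate 2) and -1.96 (without MB_shCtrl replicate 1). Pygm stayed between -5.72 and -5.39.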

How the results depend on the processing

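Most calls depended on the batch term (a replicate block, with both MT libraries placed in the batch of replicate 1). In control differentiation, DESeq2 and some edgeR settings also called members without it. Replicate numbers alone show no shared origin. The step between replicate 1 and replicate 2 correlated between the arms, with r = 0.654 over 16472 genes, which are not independent. Myog was also higher in replicate 2 of both MB groups, and whether the step is technical or one of stage was not tested. Without the block, edgeR called 0 genes in every comparison. With the replicate block it called 632 genes in MB knockdown, 3344 in MT knockdown, 7398 in control differentiation, 5446 in knockdown differentiation and 1722 in the interaction. With the block and RLE scaling these counts were 539, 3211, 7208, 5337 and 1605, with the block and total library size 509, 3715, 7384, 5241 and 1764, with the block and no filter 1046, 3740, 7534, 5856 and 2245, and with the block in DESeq2 334, 1549, 4307, 2935 and 958. DESeq2 without the block called 53, 361, 2363, 852 and 159. In control differentiation, edgeR without the block called 78 genes with RLE scaling and 582 with no filter, and in knockdown differentiation 2 with no filter. Leaving out single MB libraries gave 0 to 141 calls in control differentiation (136 without MB_shKap1 replicate 1 and 141 without MB_shKap1 replicate 2) and 0 in the other comparisons. Total library size moved the median of all genes in MT knockdown to 0.15 and the share of calls that rose to 62.7%, against 44.8% with TMM. In the interaction that share was 52.1% against 36.6%.

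Of the members, Ckm, Ckb, Pygm and Mb were called in MT knockdown, control differentiation and the interaction under all 5 settings with the block. Pygb in MT knockdown was called in 4 of the 5, and had an adjusted p of 0.141 in DESeq2. Ampd1 was called in 4 of the 5 in MT knockdown and in control differentiation. DESeq2 gave Ampd1 no adjusted p in MT knockdown and 0.158 in control differentiation. These Ampd1 calls are not read as results, since the gene entered the tested genes through MT control alone. Ak1 was called in 1 of the 5, without the filter, in knockdown differentiation (-0.45, adjusted p = 0.0138) and in the interaction (-0.63, adjusted p = 0.0209). Ckb in MB knockdown was at -0.06 without the block and at 0.07 to 0.10 with it (0.07, 0.07, 0.10, 0.08 and 0.09). Leaving out single MB libraries turned the sign of several MB values that passed no test: Ckm ranged from -2.66 to 2.94, Ckb from -0.70 to 1.10, Mb from -1.83 to 1.68, Pygm from -0.22 to 0.11 and Ak1 from -0.21 to 0.63. In knockdown differentiation Pygm ranged from -0.08 to 0.26 and Ak1 from -0.49 to 0.36. With the block, leaving out a library leaves no residual degrees of freedom, so that fit was not made. Without the block, DESeq2 called Ckm (adjusted p = 0.0118), Ckb (1.50e-04), Pygm (9.04e-56), Pygb (0.0384) and Mb (5.73e-04) in control differentiation, among 2363 genes. It did not call Ak1 or Ampd1 there, and in MT knockdown it called Pygm alone of the members. In edgeR without the block, Pygm passed in control differentiation with RLE scaling (adjusted p = 0.0493) and with no filter (0.00933). Depth limits Ckmt1, Ckmt2, Pygl and Ampd1.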
